A study of Mus musculus with 9 samples.

Results

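The genes described here are 47 genes of the cell cycle and of DNA replication, taken by name: 24 that act in mitosis, 13 that act in DNA replication and the supply of its nucleotides, and 10 that control passage through G1. They were picked out of the 52476 gene symbols of the deposited tables after the version was removed from each Ensembl identifier and the values of one symbol were summed. The list came as names and not from a threshold on these values, but it was chosen with earlier results of these data known. Of the 47, 44 were among the 11768 genes that reached 1 FPKM in at least 3 of the 9 libraries and were tested. FPKM counts the sequenced fragments of a transcript per unit of its length, scaled by how many fragments the library had mapped. Cenpf, Hmmr and Ccnd3 were too low for testing and are given by their values alone.

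The libraries were mRNA-seq of dendritic cells grown from monocytes of C57BL/6 mouse bone marrow in GM-CSF (100 ng/mL) plus IL-4 (50 ng/mL) for 7 days, and the cells were sorted by flow cytometry before use. One group of 3 received R837 with spermidine, 1 group of 3 received R837 alone, and 3 libraries labelled as having had no stimulation were the controls. R837 (imiquimod) is a small molecule that activates the RNA sensor TLR7, and spermidine is a natural polyamine. The protocol gives 24 h of interferon α before 18 h of R837 in either form. The labels do not state whether the controls had interferon α, so a change against the controls cannot be told apart from a change due to the priming. Nor do they state whether replicates were separate cultures or animals, so p-values speak of the spread among these libraries, and that spread may be technical.

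A cell that divides passes from G1, in which D-type and E-type cyclins and their kinases release the E2F transcription factors, to S phase, in which the MCM helicase opens the DNA and polymerases copy it, and then to mitosis. Transcripts of the S phase genes peak near the start of replication, and those of the mitotic genes peak late, in G2 and M. Inhibitor proteins such as p21, p27 and p18 hold the kinases back. Dendritic cells grown from monocytes are known as cells that divide little once they have differentiated.

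Markers of other marrow cells stood out in R837 replicates 2 and 3, and these values touch each comparison with R837. The 4 haemoglobin genes summed to 0.0917, 0.0676 and 0 FPKM in the R837 with spermidine libraries, to 0, 276 and 1980 FPKM in the R837 libraries and to 11, 0.108 and 0.0569 FPKM in the controls. Of 15 erythroid markers, 2 reached 1 FPKM in each R837 with spermidine library, 2, 7 and 10 did in R837 replicates 1, 2 and 3, and 4, 2 and 2 did in the controls. Of 15 neutrophil and precursor markers, 8 reached 1 FPKM in each R837 with spermidine library. The count was 8, 9 and 12 in R837 replicates 1, 2 and 3 and 9 in each control. R837 replicate 3 alone held the neutrophil granule gene Elane at 30.8 FPKM and Retnlg at 34.8 FPKM, against at most 0.536 FPKM of Elane and 0.144 FPKM of Retnlg in any other library. In R837 replicate 3 Prtn3, Fcnb and Ly6g stayed under 1 FPKM, and Ctsg, at 1.04 FPKM, was below every control. The list's sum was 5400 FPKM there and 5220 to 5980 FPKM in controls. Most of it was Chil3, at 4910 FPKM there and 5100 to 5860 FPKM in controls. Camp, Ngp, S100a8 and S100a9 had 36.0, 96.5, 55.0 and 117 FPKM there, against at most 7.0, 28.8, 14.4 and 32.8 FPKM elsewhere. Lcn2, at 87.0 FPKM there, lay between R837 replicates 1 and 2. The sum over 10 B cell markers was 9.98 FPKM in R837 replicate 3, against 0.160 to 0.809 FPKM in the other 8 libraries. Of 14 dendritic cell markers 11 or 12 reached 1 FPKM in each library, with Cd209a at 0 in all and Flt3 at most at 0.418 FPKM. R837 replicate 2 had 37.1 FPKM of Itgam in this list, against 104 to 173 FPKM in the other 8 libraries. It also had 1660 FPKM of Chil3 of the neutrophil list, against 4130 to 6400 FPKM. The sum over the 14 dendritic cell markers was highest in that library, at 5590 FPKM against 4550 to 5090 FPKM. Markers of mast cells and basophils were lower in all stimulated libraries: 8 of them summed to 6.13 to 7.02 FPKM with spermidine, 5.41 to 9.31 FPKM in R837 and 12.2 to 15.6 FPKM in controls. The basophil protease genes Mcpt8 and Prss34 held most of that sum and fell against control with spermidine (by 1.01 and 0.73, limma adjusted p = 0.0017 and 0.017) and in R837 (by 0.97 and 0.57, limma adjusted p = 0.0023 and 0.048), while the mast cell genes Tpsb2, Cma1 and Mcpt4 were listed at 0 throughout. Of 8 stem and progenitor markers, which summed to 8.05 to 9.46 FPKM with spermidine, 13 to 13.8 FPKM in R837 and 8.92 to 9.36 FPKM in controls, Kit and Gfi1 fell with spermidine against R837 (limma adjusted p = 0.0056 and 0.031) and rose in R837 against control (limma adjusted p = 0.00015 and 0.0034). Gfi1 reached a mean of 1 FPKM in R837 alone, so both of its calls were favoured by the filter. Sox4 in that list and the granule gene Ctsg fell in R837 against control (limma adjusted p = 0.0033 and 0.036) and with spermidine against control, Cd34 was at most at 0.243 FPKM, and Hoxa9 was listed at 0 throughout. Ctsg reached a mean of 1 FPKM in the controls alone, so its falls were favoured by the filter. The part of these other cells in the results below was not tested. Results are given with and without R837 replicate 3, and without R837 replicates 2 and 3 together where that changes a call.

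Most of the 47 genes were lower in both stimulated groups than in the controls, with Mki67, Ccnd2 and Cdkn1a as the members that rose. With spermidine added to R837, 9 fell and Pcna rose; of the 9, Ccnd2 had risen in R837 against control and Ube2c and E2f2 had not passed there. In R837 with spermidine against R837, 9 of the 44 tested genes fell (20.5%), where 8.0% of all genes tested fell, and 1 rose, Pcna, where 5.60% of all genes tested rose. In R837 against control 28 of the 44 fell (63.6%), where 29.5% of all genes tested fell, and 3 rose (6.82%), where 13.6% of all genes tested rose. In R837 with spermidine against control 35 of the 44 fell (79.5%), where 32.7% of all genes tested fell, and 3 rose, where 14.1% of all genes tested rose. The 3 that rose were the same in both comparisons with the controls. Rose and fell are used where the limma test on log2(FPKM + 1) gave an adjusted p under 0.05 (Benjamini-Hochberg over the 11768 genes, two-sided). Changes on that scale understate the change of genes with low FPKM. The comparisons share libraries, so their counts are not independent of each other.

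Over all 47 genes the median log2 change was -0.20 in R837 with spermidine against R837, where the median of all genes tested was -0.02. It was -0.42 in R837 against control and -0.67 in R837 with spermidine against control, where the median of all genes tested was -0.17 in both. Scaling each library by its median ratio to the others moved the all-gene median in R837 against control to -0.01 and cut the number of the 44 that fell to 18, where 15.5% of all genes tested fell and 18.7% rose. The 10 that no longer passed were Top2a, Ccnb1, Bub1, Cdc20, Nusap1, Rrm1, Pcna, Tk1, E2f1 and Ccne1. With that scaling 31 of the 44 fell and 5 rose in R837 with spermidine against control, where 17.8% of all genes tested fell and 20.8% rose. Within R837 with spermidine against R837, 9 fell and 1 rose with the same scaling, where 7.71% of all genes tested fell and 5.86% rose. In bulk samples such as these, fewer cycling cells and less RNA per cell cannot be told apart.

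Leaving out R837 replicate 3 ended 5 of these calls and brought 5 others. In R837 with spermidine against R837, 7 genes then fell and Pcna rose, where 7.11% of all genes tested fell and 5.99% rose. R837 against control then had 29 that fell and 3 that rose, where 27.2% of all genes tested fell and 12.6% rose. Against control, R837 with spermidine had 36 that fell and 3 that rose, where 32.8% of all genes tested fell and 14.4% rose. Aurkb, Nusap1 and Mcm2 lost their fall in the first of these (limma adjusted p = 0.083, 0.060 and 0.057) and Ccnb2 gained one (limma adjusted p = 0.025). E2f1 and Ccne1 lost theirs in R837 against control (limma adjusted p = 0.11 and 0.065), where Prc1, Cdc6 and E2f2 gained one (limma adjusted p = 0.037, 0.036 and 0.027). With R837 replicate 1 as the only R837 library, which assumes that it varies like the others, 4 genes fell with spermidine against R837, where 3.48% of all genes tested fell and 3.54% rose, and Pcna had a limma adjusted p of 0.075. The 4 were Ccna2, E2f2, Ccnd2 and Mki67. Against control 25 genes fell and 3 rose in R837 in that fit, where 24.8% of all genes tested fell and 12.5% rose, and with spermidine against control 36 fell and 3 rose, where 37.9% fell and 17.1% rose.

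**Figure D1:**
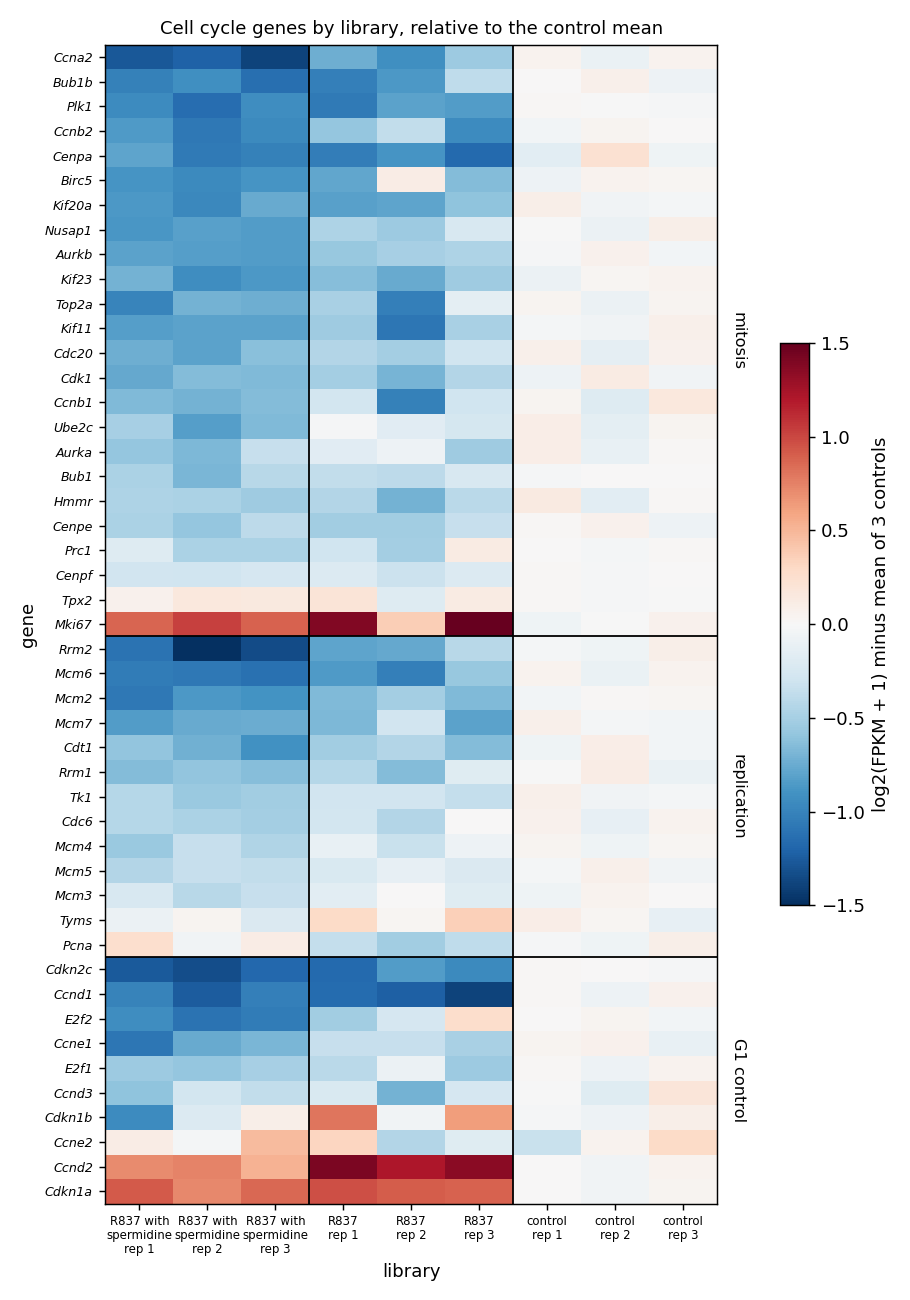
Each of the 47 genes in each of the 9 libraries, as log2(FPKM + 1) minus the mean of the 3 control libraries; rows are genes grouped as mitosis, replication and G1 control, columns are libraries from R837 with spermidine on the left to control on the right. Blue is lower than the control mean and red is higher; the rows of Mki67, Ccnd2 and Cdkn1a are red in the 6 stimulated libraries, and Mki67 is palest in R837 replicate 2.

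The mitotic genes were expressed at low levels throughout. The median of the 24 group means was 1.49 FPKM with R837 and spermidine, 1.90 FPKM with R837 and 3.42 FPKM in controls, and only Mki67 had a mean above 10 FPKM. Of the 22 tested, 4 fell in R837 with spermidine against R837 (18.2%, against 8.0% of all genes tested). In R837 against control 16 fell (72.7%, against 29.5%) and 1 rose (4.55%, against 13.6%). With spermidine against control 19 fell (86.4%, against 32.7%) and 1 rose (4.55%, against 14.1%). Bub1 and Cenpe reached a mean of 1 FPKM in the controls alone, so their fall against the controls was favoured by the filter. With a filter on the mean of all 9 libraries instead, 42 of the 47 genes were tested, and 25 of them fell and 3 rose in R837 against control, where 29.3% of the genes tested fell and 13.6% rose. That filter gave 9 falls and 1 rise with spermidine against R837, where 8.13% fell and 5.58% rose, and 33 falls and 3 rises with spermidine against control, where 32.6% fell and 14.0% rose.

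Promoters of 2 mitotic genes that fell, Plk1 and Ccnb2, and of the one that rose, Mki67, are shown because these members moved in opposite directions while sharing promoter elements. The sequences are RefSeq windows on GRCm38.p6, running 5′ to 3′ on the gene's strand from 250 bases before the annotated start to 50 bases after it. That of Plk1 lies at chr7:122159185-122159484 on the plus strand, that of Ccnb2 at chr9:70421505-70421804 on the minus strand and that of Mki67 at chr7:135716330-135716629 on the minus strand. Capitals mark TTTGAA (the core of the cell cycle genes homology region, or CHR, bound by the DREAM and MuvB complexes), CCAAT (the box bound by NF-Y) and the E2F letters, which are TTNNCGC with C or G at each N. Each was searched on both strands, so ATTGG marks a CCAAT box on the other strand, and overlapping matches are joined.
Plk1: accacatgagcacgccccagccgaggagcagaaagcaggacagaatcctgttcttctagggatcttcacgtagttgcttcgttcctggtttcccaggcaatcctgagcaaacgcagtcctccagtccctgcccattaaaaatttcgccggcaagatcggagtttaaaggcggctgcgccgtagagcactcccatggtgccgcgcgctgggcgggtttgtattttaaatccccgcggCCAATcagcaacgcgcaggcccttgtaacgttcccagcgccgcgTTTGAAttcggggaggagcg
Ccnb2: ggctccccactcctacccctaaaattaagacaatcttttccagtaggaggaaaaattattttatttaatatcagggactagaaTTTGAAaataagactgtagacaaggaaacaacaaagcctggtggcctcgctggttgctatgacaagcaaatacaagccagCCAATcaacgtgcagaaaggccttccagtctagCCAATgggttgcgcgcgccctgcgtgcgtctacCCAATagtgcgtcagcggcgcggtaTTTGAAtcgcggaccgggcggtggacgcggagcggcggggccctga
Mki67: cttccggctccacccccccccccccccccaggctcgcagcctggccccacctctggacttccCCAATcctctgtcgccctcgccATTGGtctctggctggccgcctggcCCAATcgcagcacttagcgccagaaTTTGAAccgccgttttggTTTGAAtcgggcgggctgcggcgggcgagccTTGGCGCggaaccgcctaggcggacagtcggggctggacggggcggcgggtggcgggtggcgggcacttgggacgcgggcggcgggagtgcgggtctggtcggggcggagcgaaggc
Plk1 held 1 CHR core at base 31 after the start and 1 CCAAT box 14 bases before it. Ccnb2 held 2 CHR cores and 3 CCAAT boxes. Mki67 held 2 CHR cores, 3 CCAAT boxes and 1 set of E2F letters, so the member that rose held both elements of the members that fell.

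Entries were found for 39 of the 47 genes, some with more than 1 start, and not for Ccna2, Aurkb, Kif20a, Tpx2, Mcm4, Ccne2, Ccnd1 and Ccnd2. A CHR core was in 16 of 21 windows of mitotic genes (76.2%), in 1 of 13 windows of replication genes (7.69%) and in 1 of 11 windows of G1 control genes (9.09%), where 17.9% of all 32851 windows held one. All 16 of those mitotic windows also held a CCAAT box, a pair found in 6.95% of all windows. The E2F letters showed the other division, with 69.2% of replication windows, 19.0% of mitotic windows and 18.2% of G1 control windows, where 9.57% of all windows held them. These matches describe letters in a window and not bound sites.

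Of the cyclins and kinases of mitosis, Ccna2 was lower in R837 with spermidine than in R837, and lower in R837 than in control. Ccna2 (cyclin A2, which acts in S phase and G2; chr3:36564865-36572150 in GENCODE on mm10) had 1.69, 1.79 and 1.48 FPKM in R837 with spermidine, 2.90, 2.42 and 3.44 FPKM in R837, and 5.71, 5.05 and 5.72 FPKM in controls. No library of one group reached the range of another. It fell by 0.56 on the log2 scale with spermidine against R837 (SE 0.11, limma adjusted p = 0.012) and by 0.73 in R837 against control (SE 0.11, limma adjusted p = 0.00067). The first of these was lost when R837 with spermidine replicate 3 was left out (limma adjusted p = 0.053) and held without R837 replicate 3 (limma adjusted p = 0.029). Its gene shares 863 bases with Exosc9 on the opposite strand, which averaged 2.11 FPKM, and whether reads were counted by strand is not given in the sources used here.

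The other drivers of mitotic entry differed from the controls but little between the stimulated groups. Plk1, a kinase that acts at many steps of mitosis, had 2.04, 1.65 and 2.07 FPKM with spermidine, 1.80, 2.35 and 2.26 FPKM in R837, and 4.93, 4.83 and 4.78 FPKM in controls. The stimulated groups overlapped each other and lay below every control. Its log2 change was -0.10 with spermidine against R837 (SE 0.10, limma adjusted p = 0.53), and it fell by 0.90 in R837 against control (SE 0.10, limma adjusted p = 9.6e-05). Cdk1, the kinase that cyclins A and B activate, averaged 1.26 ± 0.103 FPKM with spermidine, 1.52 ± 0.224 FPKM in R837 and 2.68 ± 0.282 FPKM in controls (SD, n = 3 each), and fell by 0.55 in R837 against control (limma adjusted p = 0.0023). Ccnb2 (cyclin B2) averaged 2.69 ± 0.297 FPKM with spermidine, 3.69 ± 0.926 FPKM in R837 and 6.17 ± 0.195 FPKM in controls. It fell by 0.63 in R837 against control (limma adjusted p = 0.0059), and its fall with spermidine against R837 passed only when R837 replicate 3 was left out.

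Ccnb1 and Top2a were close to the threshold in R837 against control. Ccnb1 (cyclin B1) had 1.57, 1.48 and 1.58 FPKM with spermidine, 2.34, 1.01 and 2.30 FPKM in R837, and 3.16, 2.53 and 3.53 FPKM in controls. R837 replicate 2 lay below all 3 libraries with spermidine, and the other R837 libraries lay above them. Its fall of 0.53 in R837 against control (limma adjusted p = 0.050, just under the threshold) was lost in 15 of the 18 other fits that tested it. Top2a, the topoisomerase that untangles sister chromatids, averaged 2.09 ± 0.324 FPKM with spermidine, 2.80 ± 1.12 FPKM in R837 and 4.40 ± 0.275 FPKM in controls. Its fall of 0.55 in R837 against control (limma adjusted p = 0.047) was lost in 14 of 18. Both fell in R837 with spermidine against control, by 0.67 and 0.81 (limma adjusted p = 0.018 and 0.0085), and the fall of Ccnb1 there did not pass under scaling by the median of ratios (adjusted p in limma = 0.056).

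Genes of the centromere and of the spindle checkpoint, Cenpa, Cenpe, Bub1 and Bub1b, fell in R837 against control, and none of them passed with spermidine against R837. Cenpa, the histone variant that marks centromeres, had 2.43, 1.84 and 1.93 FPKM with spermidine, 1.89, 2.20 and 1.65 FPKM in R837, and 4.30, 5.96 and 4.65 FPKM in controls. It had the largest fall of the mitotic genes in R837 against control, 1.03 on the log2 scale (SE 0.13, limma adjusted p = 0.00023), and a log2 change of 0.07 with spermidine against R837 (SE 0.13, limma adjusted p = 0.75). Bub1b, which encodes the checkpoint protein BubR1, had 1.21, 1.37 and 1.04 FPKM with spermidine, 1.19, 1.47 and 2.44 FPKM in R837, and 3.48, 3.71 and 3.24 FPKM in controls. R837 replicate 3 was the highest of the 6 stimulated libraries. Bub1b fell by 0.76 in R837 against control (SE 0.16, limma adjusted p = 0.0042), and by 0.94 without R837 replicate 3 (limma adjusted p = 0.00034). Bub1, its partner kinase, averaged 0.583 ± 0.156, 0.802 ± 0.107 and 1.27 ± 0.0176 FPKM in R837 with spermidine, R837 and control, and Cenpe, a motor of the kinetochore, averaged 0.738 ± 0.109, 0.767 ± 0.126 and 1.43 ± 0.117 FPKM. Both fell in R837 against control, by 0.33 and 0.46 (limma adjusted p = 0.028 and 0.0050), and the fall of Bub1 was lost in 10 of the 17 other fits that tested it. The libraries with spermidine were below those of R837 for Bub1 without overlap.

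A kinase of the chromosomal passenger complex and 2 genes of the late steps of mitosis fell with spermidine against R837. Aurkb (Aurora B) had 0.771, 0.739 and 0.729 FPKM with spermidine, 1.08, 1.19 and 1.25 FPKM in R837, and 2.05, 2.24 and 2.0 FPKM in controls. The 3 groups did not overlap. It fell by 0.31 with spermidine against R837 (SE 0.08, limma adjusted p = 0.039) and by 0.51 in R837 against control (SE 0.08, limma adjusted p = 0.0011), but the first of these did not pass in any of the 9 fits that left out 1 library (limma adjusted p = 0.056 to 0.11). Ube2c, the ubiquitin-conjugating enzyme of the anaphase-promoting complex, had 3.19, 2.33 and 2.75 FPKM with spermidine, 4.83, 4.27 and 3.92 FPKM in R837, and 5.33, 4.36 and 5.10 FPKM in controls. The libraries with spermidine were the lowest 3, and those of R837 overlapped the controls. It fell by 0.51 with spermidine against R837 (SE 0.11, limma adjusted p = 0.021; 0.024 to 0.076 over the fits without 1 library), and its log2 change in R837 against control was -0.15 (limma adjusted p = 0.31), or 0.01 with median-of-ratios scaling. Nusap1, which bundles spindle microtubules, averaged 1.00 ± 0.0411 FPKM with spermidine, 1.69 ± 0.302 FPKM in R837 and 2.59 ± 0.228 FPKM in controls, and fell by 0.42 in both steps (limma adjusted p = 0.028 with spermidine against R837, 0.010 in R837 against control).

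Cdc20, the activator of the anaphase-promoting complex, averaged 2.46 ± 0.218 FPKM with spermidine, 3.28 ± 0.333 FPKM in R837 and 4.71 ± 0.441 FPKM in controls. The libraries with spermidine did not overlap those of R837, but the log2 change of -0.31 did not pass (limma adjusted p = 0.071). Motors of the spindle and midzone fell in R837 against control: Kif20a by 0.74, Kif11 by 0.70 and Kif23 by 0.64 on the log2 scale (limma adjusted p = 0.00026, 0.0047 and 0.00088). With spermidine against R837 their log2 changes were -0.12, -0.11 and -0.19, and none passed (limma adjusted p = 0.41, 0.67 and 0.23). Kif20a, which acts in cytokinesis, averaged 2.41 ± 0.241 FPKM with spermidine, 2.72 ± 0.308 FPKM in R837 and 5.20 ± 0.33 FPKM in controls.

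Birc5 (survivin, the passenger subunit that blocks cell death in dividing cells) depended on 1 library. It had 1.37, 1.24 and 1.37 FPKM with spermidine, 1.55, 3.70 and 1.78 FPKM in R837, and 3.13, 3.52 and 3.44 FPKM in controls. R837 replicate 2 was above all 3 controls, and the other R837 libraries were below them. Its log2 change in R837 against control was -0.44 (limma adjusted p = 0.10), and without R837 replicate 2 it fell by 0.71 (limma adjusted p = 0.00035). Birc5 fell by 0.91 in R837 with spermidine against control (limma adjusted p = 0.0053).

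Tpx2 did not follow most mitotic genes, and Aurka and Prc1 did not pass in R837 against control. Tpx2, which activates Aurora A on the spindle, averaged 6.56 ± 0.271 FPKM with spermidine, 6.18 ± 0.982 FPKM in R837 and 5.93 ± 0.0971 FPKM in controls, and passed in none of the 3 comparisons (limma adjusted p = 0.63, 0.76 and 0.35 for spermidine against R837, R837 against control and spermidine against control; 0.044 for the last with median-of-ratios scaling). Aurka itself averaged 2.58 ± 0.418, 3.35 ± 0.691 and 4.17 ± 0.385 FPKM in R837 with spermidine, R837 and control, and fell in R837 with spermidine against control alone of the 3, by 0.53 (limma adjusted p = 0.011; 0.064 with median-of-ratios scaling). Prc1, which crosslinks midzone microtubules, averaged 0.828 ± 0.214, 1.06 ± 0.476 and 1.37 ± 0.0336 FPKM in the same order of groups and passed in no comparison. Its gene body lies under that of Rccd1 on the opposite strand for 21810 bases. Of the untested genes, Cenpf averaged 0.0776, 0.107 and 0.311 FPKM and Hmmr 0.570, 0.549 and 1.22 FPKM in R837 with spermidine, R837 and control, and every control was above every stimulated library for both.

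Mki67, which encodes the Ki-67 protein that coats mitotic chromosomes and marks cycling cells, went against its class. It had 20.0, 22.4 and 20.1 FPKM with spermidine, 28.9, 13.8 and 31.9 FPKM in R837, and 10.0, 10.4 and 11 FPKM in controls. All 6 stimulated libraries were above all 3 controls, and R837 replicate 2 was the lowest of the 6. Mki67 rose by 1.09 in R837 against control (SE 0.25, limma adjusted p = 0.0075), by 0.87 without R837 replicate 3 (limma adjusted p = 0.024) and by 1.45 without R837 replicate 2 (limma adjusted p = 3.9e-06). R837 replicate 1, in which haemoglobin was listed at 0, had 28.9 FPKM. The stem and progenitor markers summed to 13.2 FPKM in that library and to 13.0 and 13.8 FPKM in R837 replicates 2 and 3. Their sum was 8.05 to 9.46 FPKM with spermidine and 8.92 to 9.36 FPKM in controls. The part of other cells in the rise of Mki67 was not tested. With spermidine against R837 the log2 change was -0.17 (SE 0.25, limma adjusted p = 0.70), and without R837 replicate 2 Mki67 fell by 0.53 (limma adjusted p = 0.0044).

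**Figure D2:**
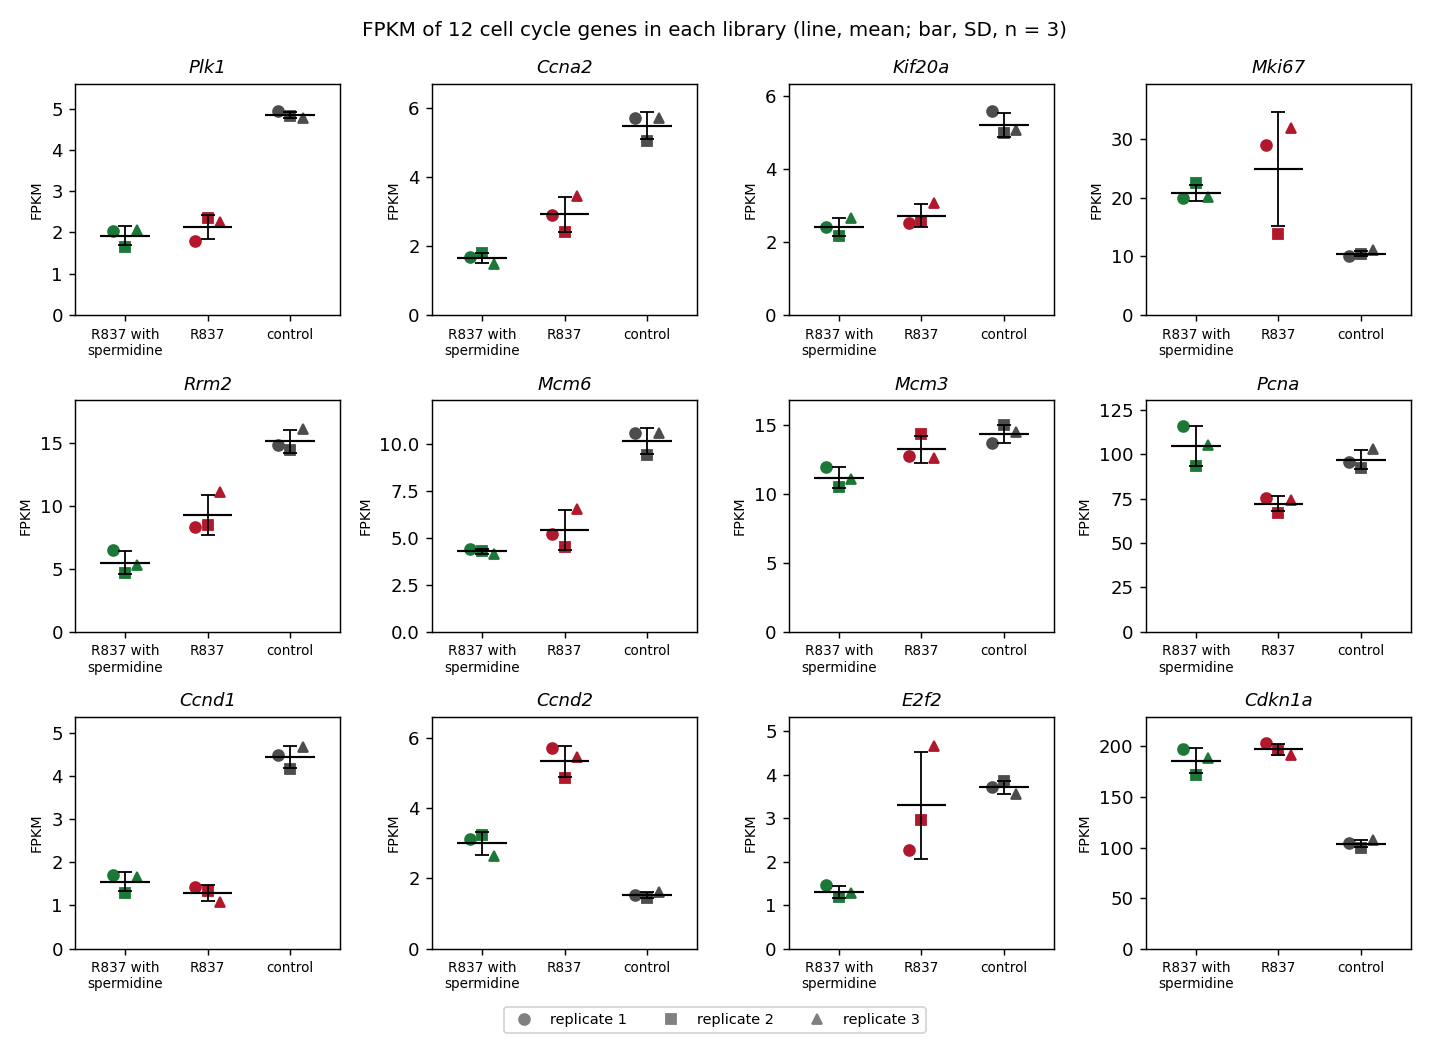
FPKM of 12 of the genes in each library, with R837 with spermidine on the left of each panel, R837 in the middle and control on the right; symbols give the replicate number, the line is the mean and the bar the SD of 3 libraries. Plk1, Kif20a and Ccnd1 sit at one level in both stimulated groups, Ccna2 and Rrm2 differ in all 3 groups, Pcna is lowest in R837, and Mki67 and Cdkn1a are above the controls in all 6 stimulated libraries.

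Among the replication genes, Rrm2 and Mcm2 fell with spermidine against R837 and Pcna rose. The median of the 13 group means was 4.29 FPKM with spermidine, 5.42 FPKM in R837 and 9.73 FPKM in controls. All 13 were tested. With spermidine against R837 2 fell (15.4%, against 8.0% of all genes tested) and 1 rose (7.69%, against 5.60%). Against control 8 fell in R837 (61.5%, against 29.5%), and 11 fell in R837 with spermidine (84.6%, against 32.7%). Their median log2 change was -0.23 with spermidine against R837, -0.42 in R837 against control and -0.51 in R837 with spermidine against control.

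The promoters of Rrm2 and Mcm6, which fell against the controls, and of Pcna, which rose with spermidine against R837, are shown because they differ in the E2F letters. That difference does not follow the direction of change, since the windows of Mcm2, which fell in all 3 comparisons, and of Tk1, which fell against the controls, also lacked the letters. They are RefSeq windows of the same extent on GRCm38.p6, with the same letters in capitals. That of Rrm2 lies at chr12:24708004-24708303 on the plus strand, that of Mcm6 at chr1:128359656-128359955 on the minus strand and that of Pcna at chr2:132253131-132253430 on the minus strand.
Rrm2: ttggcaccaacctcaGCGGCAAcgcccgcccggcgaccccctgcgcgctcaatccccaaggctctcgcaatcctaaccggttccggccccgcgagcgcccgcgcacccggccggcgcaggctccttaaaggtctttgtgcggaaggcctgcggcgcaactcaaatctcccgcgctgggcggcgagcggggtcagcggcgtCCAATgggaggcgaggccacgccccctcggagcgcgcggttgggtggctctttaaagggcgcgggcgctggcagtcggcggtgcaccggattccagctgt
Mcm6: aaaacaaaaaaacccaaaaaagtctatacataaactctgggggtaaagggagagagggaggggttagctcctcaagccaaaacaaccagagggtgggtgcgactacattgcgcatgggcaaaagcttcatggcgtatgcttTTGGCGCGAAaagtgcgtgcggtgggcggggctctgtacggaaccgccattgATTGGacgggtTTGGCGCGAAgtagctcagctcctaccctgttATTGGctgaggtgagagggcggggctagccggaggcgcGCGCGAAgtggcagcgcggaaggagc
Pcna: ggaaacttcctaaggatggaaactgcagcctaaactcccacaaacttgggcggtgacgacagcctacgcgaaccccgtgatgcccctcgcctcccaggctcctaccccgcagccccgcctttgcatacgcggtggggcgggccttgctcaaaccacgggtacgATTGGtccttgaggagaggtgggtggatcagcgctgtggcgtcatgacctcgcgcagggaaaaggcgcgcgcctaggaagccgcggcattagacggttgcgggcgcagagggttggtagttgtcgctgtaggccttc
Mcm6 held 5 matches to the E2F letters, 4 of them in 2 overlapping pairs read from both strands, and 2 CCAAT boxes. Rrm2 held 1 match to the E2F letters, 235 bases before the start, and 1 CCAAT box. Pcna held 1 CCAAT box, and neither the E2F letters nor a CHR core as spelled here.

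Nucleotide supply was led by Rrm2, the regulated subunit of ribonucleotide reductase, which makes deoxynucleotides. Rrm2 had 6.46, 4.64 and 5.32 FPKM with spermidine, 8.28, 8.46 and 11.1 FPKM in R837, and 14.8, 14.4 and 16.1 FPKM in controls. The 3 groups did not overlap, and R837 replicate 3 was the R837 library nearest to the controls. It fell by 0.67 with spermidine against R837 (SE 0.13, limma adjusted p = 0.013; 0.027 without R837 replicate 3) and by 0.66 in R837 against control (SE 0.13, limma adjusted p = 0.0037). With R837 replicate 1 as the only R837 library, the change with spermidine was -0.53 and did not pass (limma adjusted p = 0.094). Rrm1, the large subunit, averaged 1.86 ± 0.0628 FPKM with spermidine, 2.32 ± 0.547 FPKM in R837 and 3.42 ± 0.318 FPKM in controls, and fell by 0.42 in R837 against control (limma adjusted p = 0.021; lost in 6 of the 18 other fits that tested it). Tk1, thymidine kinase, averaged 1.14 ± 0.104, 1.45 ± 0.0571 and 2.04 ± 0.152 FPKM in R837 with spermidine, R837 and control and fell by 0.31 in R837 against control (limma adjusted p = 0.016). The log2 change of Tk1 there was -0.18 with median-of-ratios scaling and -0.16 with quantile normalization, and passed in neither (limma adjusted p = 0.14 and 0.23), nor without control replicate 1 (limma adjusted p = 0.063). Tyms, thymidylate synthase, had 0.964, 1.15 and 0.799 FPKM with spermidine, 1.55, 1.12 and 1.68 FPKM in R837, and 1.23, 1.12 and 0.919 FPKM in controls, and passed in no comparison (limma adjusted p = 0.13, 0.16 and 0.60). With quantile normalization Tyms rose by 0.36 in R837 against control (limma adjusted p = 0.038). Without R837 replicate 2 it rose by 0.33 there (limma adjusted p = 0.046).

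The 6 subunits of the MCM2-7 helicase, which work as a single ring, did not move by the same amount. In R837 against control Mcm6 fell by 0.81, Mcm2 by 0.62 and Mcm7 by 0.59 on the log2 scale (limma adjusted p = 0.00049, 0.00051 and 0.0048), under each scaling tried. The log2 changes of Mcm5, Mcm4 and Mcm3 were -0.19, -0.17 and -0.11 and did not pass (limma adjusted p = 0.060, 0.16 and 0.31), and those of Mcm4 and Mcm3 became 0.01 and 0.08 with median-of-ratios scaling. Mcm6 had 4.41, 4.32 and 4.15 FPKM with spermidine, 5.20, 4.50 and 6.57 FPKM in R837, and 10.6, 9.41 and 10.6 FPKM in controls. Mcm3 had 12, 10.5 and 11.1 FPKM with spermidine, 12.8, 14.4 and 12.6 FPKM in R837, and 13.7, 15 and 14.5 FPKM in controls. Every stimulated library was below every control for Mcm6, and the R837 libraries overlapped the controls for Mcm3. The difference between subunits was not tested.

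With spermidine against R837 Mcm2 was the subunit that passed. It had 2.20, 2.71 and 2.63 FPKM with spermidine, 3.24, 3.71 and 3.25 FPKM in R837, and 5.53, 5.79 and 5.88 FPKM in controls, with no overlap of groups. It fell by 0.33 (SE 0.09, limma adjusted p = 0.041), and did not pass in any of the 9 fits that left out 1 library (limma adjusted p = 0.057 to 0.11). Its call was lost in 14 of the 18 other fits that tested it. The other 5 had log2 changes of -0.19 to -0.28 with limma adjusted p of 0.084 to 0.33. Without R837 replicate 2, Mcm4 and Mcm6 passed (log2 change -0.36 and -0.37, limma adjusted p = 0.022 and 0.044) and Mcm2 did not. Which subunit passed thus depended on the libraries used. In R837 with spermidine against control all 6 fell, from 0.34 for Mcm3 to 1.08 for Mcm6 (limma adjusted p = 0.0088 and 0.00010), but Mcm3 and Mcm5 did not pass with scaling by the median of ratios (adjusted p in limma = 0.21 and 0.059).

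Of the factors that load the helicase, Cdt1 averaged 11.2 ± 1.32 FPKM with spermidine, 13.1 ± 1.02 FPKM in R837 and 19.4 ± 1.28 FPKM in controls. It fell by 0.54 in R837 against control (limma adjusted p = 0.0024), and its change of -0.21 with spermidine against R837 did not pass (limma adjusted p = 0.21). Another gene model, Gm20388, covers the whole of Cdt1 on the same strand and was listed at 0. Cdc6 had 0.745, 0.693 and 0.648 FPKM with spermidine, 0.942, 0.731 and 1.36 FPKM in R837, and 1.46, 1.16 and 1.44 FPKM in controls. R837 replicate 3 was within the range of the controls, and the other R837 libraries were below it. Cdc6 did not pass in R837 against control (limma adjusted p = 0.16) unless that library was left out, and it fell by 0.47 in R837 with spermidine against control (limma adjusted p = 0.013).

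Pcna, the sliding clamp of the DNA polymerases, which also serves in DNA repair, was the member that rose with spermidine against R837. It had 116, 93.6 and 105 FPKM with spermidine, 75.5, 67.2 and 74.0 FPKM in R837, and 95.5, 92.5 and 103 FPKM in controls. All R837 libraries were below all others, and the libraries with spermidine overlapped the controls. Pcna rose by 0.53 with spermidine against R837 (SE 0.09, limma adjusted p = 0.0075; 0.018 without R837 replicate 3) and fell by 0.42 in R837 against control (SE 0.09, limma adjusted p = 0.0060). Median-of-ratios scaling ended the call of that fall (log2 change -0.22, limma adjusted p = 0.098). The change in R837 with spermidine against control was 0.11 (limma adjusted p = 0.37), and with that scaling Pcna rose by 0.32 (limma adjusted p = 0.024). Pcna-ps2, a processed copy of the gene on chromosome 19, averaged 2.16 ± 0.839, 0.961 ± 0.509 and 1.99 ± 0.103 FPKM in R837 with spermidine, R837 and control, so reads may be shared between the 2. At 72.2 to 105 FPKM on average Pcna stood above the other replication genes, of which Cdt1 was the highest in controls at 19.4 FPKM.

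**Figure D3:**
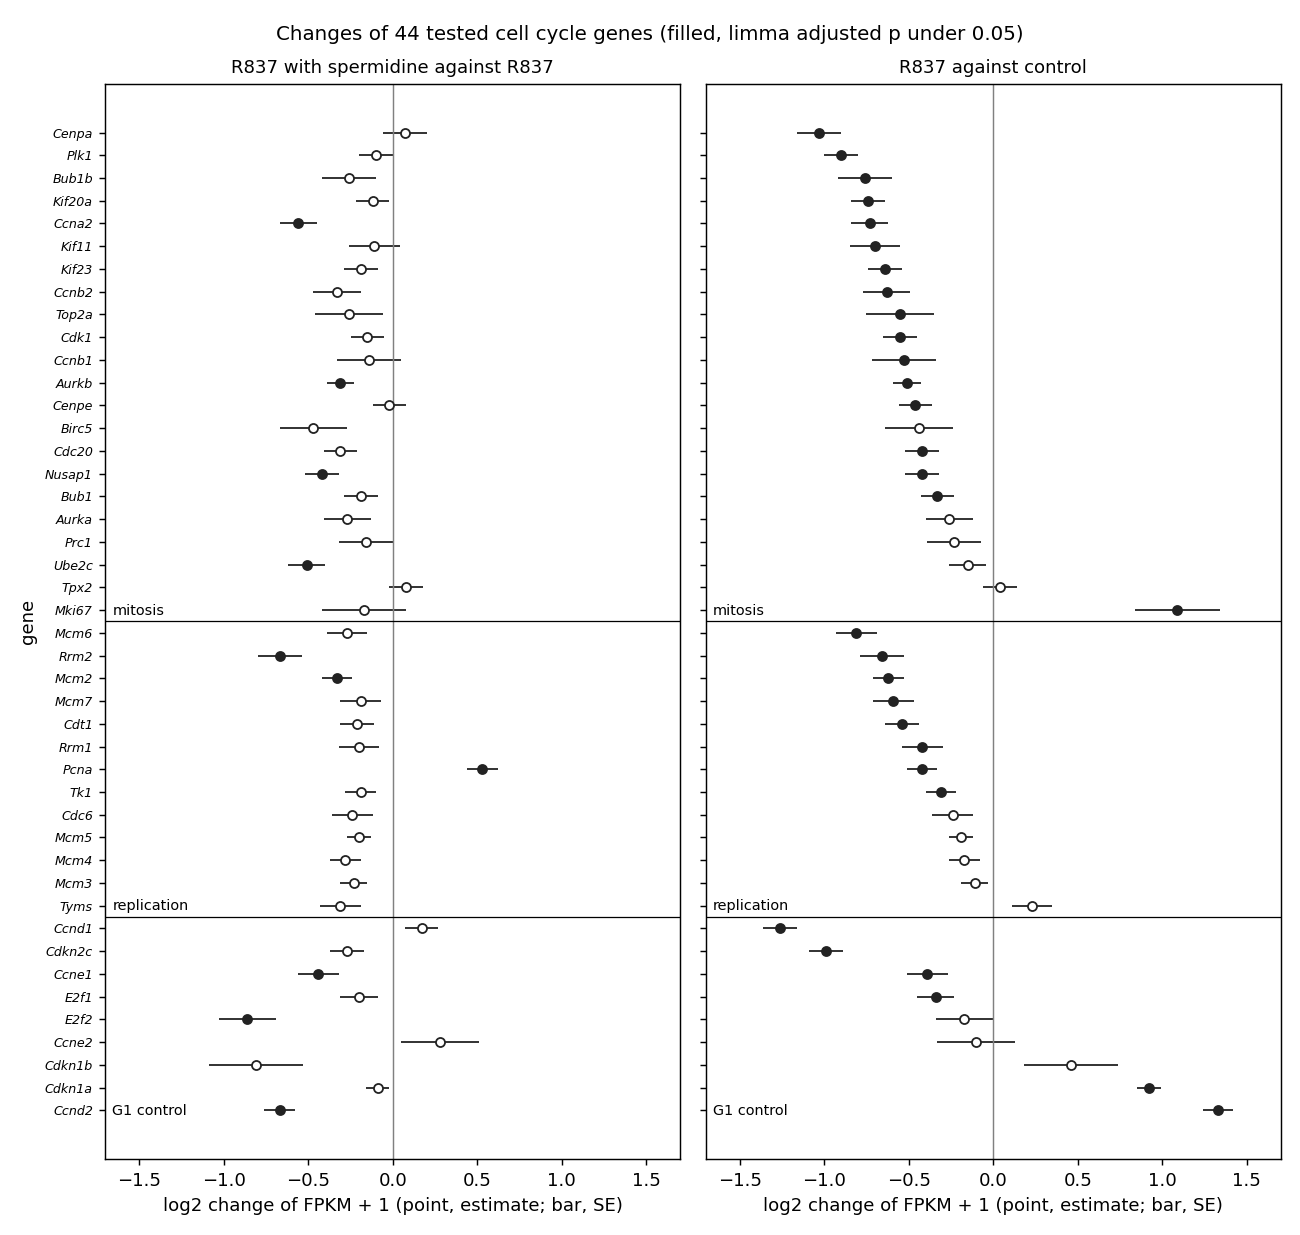
Log2 changes of FPKM + 1 for the 44 tested genes with R837 with spermidine against R837 on the left and R837 against control on the right; points are limma estimates, bars their SE, and filled points had an adjusted p under 0.05. The filled points on the right lie below 0 but for Mki67, Cdkn1a and Ccnd2, and on the left 9 lie below 0 and Pcna lies above.

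Of the 9 G1 control genes tested, 3 fell with spermidine against R837 (33.3%, against 8.0% of all genes tested). In R837 against control 4 fell (44.4%, against 29.5%) and 2, Ccnd2 and Cdkn1a, rose (22.2%, against 13.6%), and in R837 with spermidine against control 5 fell (55.6%, against 32.7%) and the same 2 rose (22.2%, against 14.1%). With so few members these shares are coarse.

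The D-type cyclins, which join CDK4 and CDK6 in early G1, exchanged places. Ccnd1 (cyclin D1; chr7:144929931-144939925) had 1.7, 1.29 and 1.66 FPKM with spermidine, 1.43, 1.33 and 1.07 FPKM in R837, and 4.48, 4.15 and 4.66 FPKM in controls. It fell by 1.26 in R837 against control (SE 0.10, limma adjusted p = 1.5e-05), the largest fall of the 44, and its change with spermidine against R837 was 0.17 (SE 0.10, limma adjusted p = 0.31). Ccnd2 (cyclin D2; chr6:127125162-127152193) had 3.13, 3.23 and 2.63 FPKM with spermidine, 5.70, 4.85 and 5.45 FPKM in R837, and 1.52, 1.43 and 1.61 FPKM in controls. The 3 groups of Ccnd2 were apart, with R837 highest and control lowest. It rose by 1.33 in R837 against control (SE 0.09, limma adjusted p = 5.9e-06), the largest rise of the 44, and fell by 0.67 with spermidine against R837 (SE 0.09, limma adjusted p = 0.0027). Of the 9 falls with spermidine it was the one that passed in every other fit that tested it. The antisense gene Gm43126 overlaps Ccnd2 and averaged 3.70 FPKM, and LTO1 overlaps Ccnd1 on the opposite strand and averaged 2.43 FPKM.

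Because FPKM is per length, the 3 D cyclins can be set side by side. Ccnd2 made up 59.0%, 60.1% and 52.3% of their summed FPKM with spermidine, 71.0%, 74.1% and 73.6% in R837, and 21.1%, 21.8% and 20.6% in controls. The shares of the 3 groups did not overlap. Ccnd1 made up 24.0% to 33.0% with spermidine, 14.4% to 20.3% in R837 and 59.6% to 63.3% in controls. The sum itself was 5.03 to 5.37 FPKM with spermidine, 6.55 to 8.03 FPKM in R837 and 6.56 to 7.83 FPKM in controls. Ccnd3, which was not tested, averaged 0.691 ± 0.193, 0.722 ± 0.303 and 1.25 ± 0.289 FPKM in R837 with spermidine, R837 and control.

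**Figure D4:**
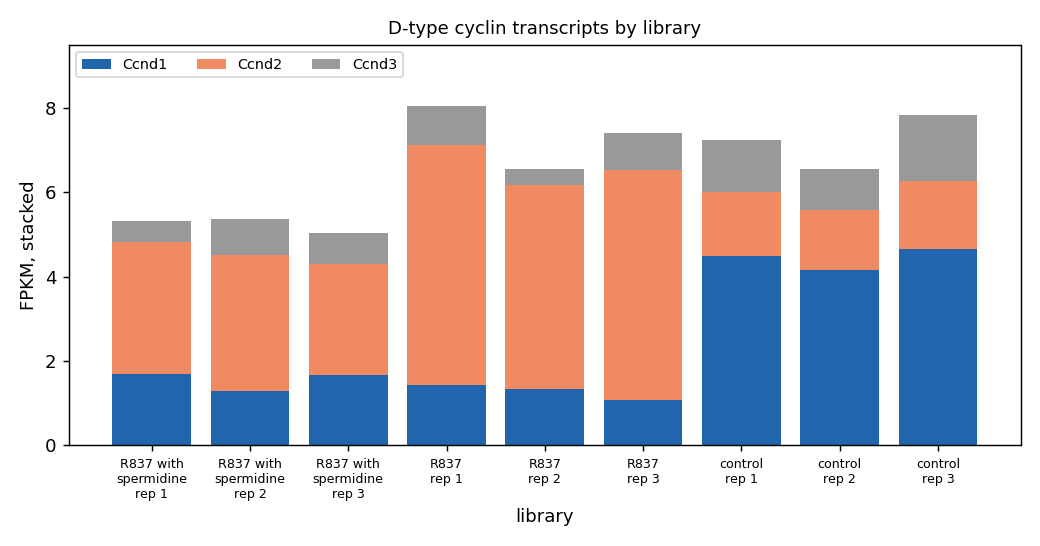
Stacked FPKM of Ccnd1, Ccnd2 and Ccnd3 in each of the 9 libraries, with R837 with spermidine on the left, R837 in the middle and control on the right. Ccnd2 is the largest segment in all 6 stimulated libraries and Ccnd1 is the largest in the 3 controls.

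Of the E-type cyclins and E2F factors, which start S phase, E2f2 and Ccne1 fell with spermidine against R837. E2f2, an activator of S phase genes, had 1.46, 1.19 and 1.27 FPKM with spermidine, 2.27, 2.96 and 4.66 FPKM in R837, and 3.71, 3.85 and 3.56 FPKM in controls. R837 replicate 3, the library richest in haemoglobin transcripts, was above every control, and the other R837 libraries were below them. E2f2 fell by 0.86 with spermidine against R837 (SE 0.17, limma adjusted p = 0.013), the largest of the 9 falls, and by 0.64 without R837 replicate 3 (limma adjusted p = 0.012). Its change of -0.17 in R837 against control did not pass (limma adjusted p = 0.46), and without R837 replicate 3 it fell by 0.39 (limma adjusted p = 0.027).

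Ccne1 (cyclin E1) had 2.34, 3.19 and 3.39 FPKM with spermidine, 4.56, 4.53 and 4.04 FPKM in R837, and 6.26, 6.40 and 5.53 FPKM in controls. The 3 groups did not overlap. It fell by 0.44 with spermidine against R837 (SE 0.12, limma adjusted p = 0.036), a call lost in 11 of the 18 other fits that tested it, and by 0.39 in R837 against control (SE 0.12, limma adjusted p = 0.022; 0.065 without R837 replicate 3, and lost in 6 of 18). E2f1 averaged 4.02 ± 0.156 FPKM with spermidine, 4.79 ± 0.937 FPKM in R837 and 6.30 ± 0.343 FPKM in controls, and fell by 0.34 in R837 against control (limma adjusted p = 0.036; 0.11 without R837 replicate 3). Ccne2 ranged from 0.515 to 1.85 FPKM over the 9 libraries and passed in no comparison (limma adjusted p = 0.44, 0.75 and 0.53). The genes of Ccne2 and Ints8 overlap on opposite strands by 5622 bases.

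The inhibitors of the cyclin-dependent kinases split. Cdkn1a (p21, a p53 target that also responds to many other signals; chr17:29090976-29100727) had the highest level of the 47 genes, with 197, 172 and 189 FPKM with spermidine, 203, 196 and 192 FPKM in R837, and 104, 100 and 107 FPKM in controls. The stimulated groups overlapped each other and stood apart from the controls. It rose by 0.92 in R837 against control (SE 0.07, limma adjusted p = 1.1e-05), and its change with spermidine against R837 was -0.09 (SE 0.07, limma adjusted p = 0.44). Cdkn2c (p18, an inhibitor of CDK4 and CDK6) had 1.34, 1.23 and 1.47 FPKM with spermidine, 1.49, 2.13 and 1.88 FPKM in R837, and 4.66, 4.60 and 4.51 FPKM in controls. It fell by 0.99 in R837 against control (SE 0.10, limma adjusted p = 5.7e-05), and its change of -0.27 with spermidine against R837 did not pass although the groups did not overlap (limma adjusted p = 0.11). Cdkn1b (p27) had 1.49, 3.16 and 4.07 FPKM with spermidine, 7.33, 3.61 and 6.36 FPKM in R837, and 3.74, 3.54 and 4.08 FPKM in controls. The spread within both stimulated groups was wide, and Cdkn1b passed in no comparison (limma adjusted p = 0.087 with spermidine against R837, 0.032 without R837 replicate 2).

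Across the 44 tested genes, the calls against the controls were steadier to leaving out 1 library than those between the stimulated groups. Of the 28 falls in R837 against control, 21 held in each of the 9 fits that left out 1 library, as did the 3 rises. Of the 35 falls in R837 with spermidine against control, 34 did, as did the 3 rises. With spermidine against R837, the rise of Pcna held in those 9 fits, and of the 9 falls that of Ccnd2 did. The fall of Ccna2 passed in 8 of the 9, those of Rrm2 and E2f2 in 7, that of Ube2c in 6, that of Nusap1 in 4, that of Ccne1 in 2, and those of Aurkb and Mcm2 in 0 (limma adjusted p = 0.056 to 0.11 and 0.057 to 0.11). Median-of-ratios scaling went the other way: it ended 14 calls, all of them against the controls.

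Other genes of the same processes were taken from lists of 48 further replication and repair genes, 59 further mitotic genes and 36 further G1 control genes. Among all genes tested 8.0% fell and 5.60% rose with spermidine against R837, 29.5% and 13.6% in R837 against control, and 32.7% and 14.1% in R837 with spermidine against control. Of the 40 replication and repair genes tested, 7 fell (17.5%) and 1 rose with spermidine against R837, 24 fell (60.0%) and 1 rose in R837 against control, and 29 fell (72.5%) in R837 with spermidine against control. Among them Gins1, Prim1, Pole and Rad51ap1 reached a mean of 1 FPKM in the controls alone. Their falls against the controls were favoured by the filter. Of the 45 mitotic genes tested, 5 fell (11.1%) and 1 rose with spermidine against R837, 24 fell (53.3%) and 2 rose in R837 against control, and 33 fell (73.3%) and 2 rose in R837 with spermidine against control. The 34 G1 control genes tested lay nearer to the shares of all genes, with 2 that fell (5.88%) and 4 that rose (11.8%) with spermidine against R837, 10 (29.4%) and 8 (23.5%) in R837 against control, and 14 (41.2%) and 5 (14.7%) in R837 with spermidine against control. With median-of-ratios scaling 14 replication and repair genes (35.0%), 17 mitotic genes (37.8%) and 7 G1 control genes (20.6%) fell in R837 against control, where 15.5% of all genes tested fell. The median log2 change over all 59 further mitotic genes was -0.17, -0.34 and -0.57 in these comparisons, and over all 48 further replication and repair genes -0.09, -0.35 and -0.47.

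The maintenance of DNA methylation, which follows the replication fork, included the largest fall of the replication list. Dnmt1, the maintenance methyltransferase, averaged 12.9 ± 0.467 FPKM with spermidine, 10.2 ± 0.889 FPKM in R837 and 36.0 ± 1.09 FPKM in controls. It fell by 1.72 in R837 against control (limma adjusted p = 3.7e-07; 4.6e-06 without R837 replicate 3) and rose by 0.31 with spermidine against R837 (limma adjusted p = 0.034). Uhrf1, its partner at newly copied DNA, averaged 4.15 ± 0.553 FPKM with spermidine, 7.36 ± 0.790 FPKM in R837 and 9.48 ± 0.987 FPKM in controls. Uhrf1 fell by 0.70 with spermidine against R837 (limma adjusted p = 0.0053), so the 2 partners differed in direction there. Gmnn (geminin, which blocks Cdt1) averaged 2.53 ± 0.301, 2.22 ± 0.403 and 5.59 ± 0.906 FPKM in R837 with spermidine, R837 and control and fell by 1.03 in R837 against control (limma adjusted p = 0.00024). Rfc2, a subunit of the loader of the Pcna clamp, fell by 0.98 there (limma adjusted p = 7e-05). Clspn, which carries the replication checkpoint signal, fell by 1.06 in R837 with spermidine against control (limma adjusted p = 6.6e-05), and Asf1b, a histone chaperone, by 0.52 with spermidine against R837 (limma adjusted p = 0.012).

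Pola2, a subunit of the primase complex, and E2f8, a repressor of the E2F family, had the highest level in R837. Pola2 averaged 6.82 ± 0.380 FPKM with spermidine, 10.0 ± 0.364 FPKM in R837 and 6.42 ± 0.671 FPKM in controls. It fell by 0.49 with spermidine against R837 (limma adjusted p = 0.0073). E2f8 averaged 5.30 ± 0.0493 FPKM with spermidine, 9.94 ± 0.805 FPKM in R837 and 5.47 ± 0.367 FPKM in controls. It fell by 0.79 with spermidine against R837 (limma adjusted p = 0.00060). For both genes the libraries with spermidine overlapped the controls.

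In the mitotic list, Cdc25b, the phosphatase that activates CDK1, averaged 2.30 ± 0.164 FPKM with spermidine, 3.11 ± 0.674 FPKM in R837 and 8.32 ± 0.490 FPKM in controls. It fell by 1.19 in R837 against control (limma adjusted p = 4.6e-05). Lmnb1 (lamin B1) fell by 0.97 and Ncapg2, a subunit of condensin II, by 0.99 in that comparison (limma adjusted p = 0.00012 and 0.00094). Kif18b, a motor of mitotic microtubules, fell by 0.60, Ncapd2, a subunit of condensin I, by 0.55 and Hmgb2, a chromatin protein, by 0.78 with spermidine against R837 (limma adjusted p = 0.0075, 0.028 and 0.020). The falls of Ncapd2 and Hmgb2 were lost in 6 of 18 and 5 of 19 other fits. Hmgb2 had 16.0, 10.7 and 19.1 FPKM in R837, and without R837 replicate 3 its fall was 0.61 (limma adjusted p = 0.038). Cdca3 fell by 1.31 in R837 with spermidine against control (limma adjusted p = 5.8e-05).

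Inhibitors other than p21 differed among themselves. Cdkn1c (p57) averaged 13.6 ± 1.15 FPKM with spermidine, 7.21 ± 1.96 FPKM in R837 and 27.1 ± 3.58 FPKM in controls. It fell by 1.79 in R837 against control (limma adjusted p = 2.8e-05) and rose by 0.85 with spermidine against R837 (limma adjusted p = 0.011; 0.028 without R837 replicate 3). Cdkn2b (p15) averaged 19.1 ± 1.75 FPKM with spermidine, 11.4 ± 1.26 FPKM in R837 and 5.75 ± 0.475 FPKM in controls. It rose by 0.69 with spermidine against R837 and by 1.57 in R837 with spermidine against control (limma adjusted p = 0.0035 and 6.2e-06). Cdkn2d (p19) fell by 1.2 in the last of these comparisons (limma adjusted p = 0.00050). Rb1, which holds E2F factors back, fell by 1.11 and Fbxw7, which marks cyclin E for destruction, by 0.99 in R837 against control (limma adjusted p = 0.00024 and 0.00017).

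Because Cdkn1a is a target of p53, 24 genes listed as p53 targets were set beside it. Whether p53 acted on them was not tested. All 24 passed the filter. In R837 against control their median log2 change was -0.02, with 12 above 0 and 12 below. With spermidine against R837 3 fell (12.5%, against 8.0% of all genes tested) and 2 rose (8.33%, against 5.60%). In R837 against control 9 fell (37.5%, against 29.5%) and 8 rose (33.3%, against 13.6%), and in R837 with spermidine against control 5 fell (20.8%, against 32.7%) and 6 rose (25.0%, against 14.1%). Gadd45b, a stress gene, averaged 368 ± 18.1 FPKM with spermidine, 519 ± 83.3 FPKM in R837 and 148 ± 6.60 FPKM in controls, and rose by 1.79 in R837 against control (limma adjusted p = 2.2e-06). The death receptor gene Fas averaged 19.4 ± 1.97 FPKM with spermidine, 21.0 ± 4.53 FPKM in R837 and 6.38 ± 0.391 FPKM in controls, and rose by 1.55 there (limma adjusted p = 4.1e-05). Bbc3 (PUMA), which promotes apoptosis, fell by 1.30 (limma adjusted p = 1.9e-05), to 12.6 ± 0.741 FPKM in R837 against 32.5 ± 1.72 FPKM in controls. Trp53inp1, Plk3 and Ccng2 moved with spermidine against R837, by 1.06, 0.86 and -0.56 (limma adjusted p = 0.0019, 0.0027 and 0.0038). Plk2, a stress-responsive kinase, rose by 1.34 in R837 with spermidine against control (limma adjusted p = 1.3e-05).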

How the data were processed

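Each of the 9 mRNA-seq libraries came as a table of FPKM per gene, deposited by the authors, per the file headers. HISAT2 and StringTie, and the builds mm8 and mm10 without a role, are named in the submitters' processing notes; versions, strandedness and annotation are not given in the sources used here. Of 52550 Ensembl identifiers per table, 52403 (99.72%) matched GENCODE mouse release M21 without the version, and 73 symbols had several, whose values were summed. The 37 mitochondrial genes had a value of 0 throughout, so a 0 need not mean absence.

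FPKM carries no counts. The low values of genes with 1 transcript gave an approximate depth of 10700000 to 14400000 units per library, or 10.7 to 14.4 units at 1 FPKM and 1 kb, with 27.2% to 30.4% of those values whole within 0.05, so values near 1 FPKM carry a large counting error. Pearson's r between replicates on log2(FPKM + 1) was 0.983 to 0.986 in R837 with spermidine, 0.967 to 0.981 in R837 and 0.984 to 0.985 in control.

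Genes at 1 FPKM or more in at least 3 libraries entered one limma 3.58.1 fit in R 4.3.3 (lmFit, eBayes with trend) on log2(FPKM + 1), with 3 group means, 3 contrasts and Benjamini-Hochberg adjustment over 11768 genes at 0.05. The script was tested on simulated data. Groups were taken from the treatment labels. Alternatives were other scalings and filters, TPM, a pseudocount of 0.1, a replicate block, the 2 groups alone and leaving out each library; leaving out R837 replicates 2 and 3 together and the filter on mean FPKM of at least 1 were added after seeing the data. The 47 genes and the lists were chosen with earlier results of these data known. Per-library values are given for members that passed or whose call depended on 1 library; from each further list the 3 largest changes past the threshold per comparison are named. Of the 47 gene bodies, 19 overlap another gene. Means are with SD.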

Additional observations from a re-analysis of the deposited data

How the results depend on the processing

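Most fits left out 1 library or changed 1 choice, and no call of the 47 genes changed sign while called. The number that fell in R837 with spermidine against R837, 9, was 4 with no filter, 1 with the filter on mean FPKM of at least 5 (which tests 12 of the 47), 4 with only the 2 groups compared and 4 without R837 replicates 2 and 3, and 2 to 12 when 1 library was left out. The fits without R837 replicate 1 and without R837 with spermidine replicates 1, 2 and 3 gave 4, 5, 2 and 2. The 1 rise there, Pcna, became 0 rises without R837 replicates 2 and 3. The number that fell in R837 against control, 28, was 18 with median-of-ratios scaling and 6 with the filter on mean FPKM of at least 5, and 21 to 29 when 1 library was left out. In R837 with spermidine against control, 5 rose with median-of-ratios scaling, and 8 fell with the filter on mean FPKM of at least 5. The stricter filter tests fewer genes, and leaving out libraries leaves fewer of them; for the other settings the cause was not tested.

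Over all genes tested, the 942 falls and 659 rises with spermidine against R837 became 476 and 290 without R837 with spermidine replicate 2, 459 and 290 without its replicate 3, 410 and 416 without R837 replicates 2 and 3, and 456 and 301 with only the 2 groups; the rises were 432 without R837 replicate 1 or R837 with spermidine replicate 1. The 3477 falls and 1604 rises in R837 against control became 1823 and 2203 with median-of-ratios scaling, and 1842 falls with the filter on mean FPKM of at least 5. The 3850 falls and 1658 rises in R837 with spermidine against control became 2092 and 2446, and 2021 falls. The labels give no pairing beyond the replicate number. Deviations of same-numbered libraries correlated at -0.0912 to 0.159, and those of differently numbered libraries at -0.214 to 0.197. With 3 libraries per group these values cannot decide whether the numbers pair the samples. With the replicate number as a block, 6 genes fell with spermidine against R837, 27 in R837 against control and 35 in R837 with spermidine against control. Genes under a few FPKM are limited by depth, and 35 of the 47 averaged under 5 FPKM.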
